A study of Mus musculus with 6 samples.

Results

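Skeletal muscle contractile genes were examined in RNA-seq of the cochlea, the part of the inner ear that serves hearing. The knock-in mice were homozygous for an Hgf allele (Hgfdel10Neo/del10Neo), which has a deletion of 10 bp in intron 5 of Hgf and, by its name, a Neo selection cassette. The wild-type mice were their littermates (Hgf+/+), and there were 3 mice in each group, aged 5 to 27 weeks as a range over both groups. A set of 34 genes of the sarcomere, its calcium store and muscle energy supply was chosen by symbol, and all 34 were found among the 48709 mouse genes of the count table. Of these, 33 passed the filter on low counts. The fast fibre list held 12 of the 34 genes and the slow fibre list 5.

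Skeletal muscle contracts when calcium released from the sarcoplasmic reticulum binds troponin on the thin filament and lets myosin of the thick filament pull on actin. Fast and slow fibres use different genes for the same parts, so the myosin and troponin forms present in a tissue tell its fibre types apart. The cochlea has no skeletal muscle of its own, and the stapedius and tensor tympani muscles lie in the adjoining middle ear. The source of the muscle RNA in these libraries was not tested.

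The library totals were 34437746, 28451570 and 24005234 gene counts for knock-in replicates 1 to 3 and 24144106, 29041493 and 42312291 for wild-type replicates 1 to 3. All 14 cochlear markers on a list that included Otof, Coch and Gjb6 passed the filter in these libraries. Their summed level was 3255.3 to 3748.4 CPM (counts per 1000000) in knock-in and 3030.1 to 3483.3 CPM in wild-type libraries. Most of that sum was Coch, at 2587.8 to 3062.9 CPM in knock-in and 2374.9 to 2761.9 CPM in wild-type libraries. Of the 14, 2 were higher and 1 lower in knock-in without overlap of the groups, beside 4.71% and 4.01% of all genes. Hgf was at 9.24 to 10.5 CPM in knock-in and 15.2 to 16.3 CPM in wild-type libraries. Reads of the Neo cassette numbered 71, 199 and 5 in knock-in replicates 1 to 3, against 5, 8 and 10 in the wild-type libraries. The library labelled knock-in replicate 3 was therefore at the wild-type level for Neo while its Hgf level lay with the knock-in group, and log2 fold changes without this library are given beside the results or together after the fast and slow genes.

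The start regions of 3 of these genes, from 250 bases before to 50 bases after the start, are printed to show the sequence context of a fast myosin gene (Myh4), of the muscle creatine kinase gene (Ckm) and of a slow troponin gene (Tnnt1). They are RefSeq sequences on GRCm38.p6, read 5′ to 3′ on the strand of the gene, and lie at chr11:67237562-67237861 on the forward strand (Myh4), chr7:19410844-19411143 on the forward strand (Ckm) and chr7:4515926-4516225 on the reverse strand (Tnnt1). Capitals mark CAGCTG, a form of the E-box that myogenic factors such as MyoD bind, CATTCC, the M-CAT motif of TEAD factors, and TATAAA, each on either strand.
Myh4: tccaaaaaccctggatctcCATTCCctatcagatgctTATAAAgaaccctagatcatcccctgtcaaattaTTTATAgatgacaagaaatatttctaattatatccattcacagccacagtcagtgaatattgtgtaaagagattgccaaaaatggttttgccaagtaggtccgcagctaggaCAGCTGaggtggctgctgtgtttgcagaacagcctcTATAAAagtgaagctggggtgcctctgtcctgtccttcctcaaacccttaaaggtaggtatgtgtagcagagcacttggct
Ckm: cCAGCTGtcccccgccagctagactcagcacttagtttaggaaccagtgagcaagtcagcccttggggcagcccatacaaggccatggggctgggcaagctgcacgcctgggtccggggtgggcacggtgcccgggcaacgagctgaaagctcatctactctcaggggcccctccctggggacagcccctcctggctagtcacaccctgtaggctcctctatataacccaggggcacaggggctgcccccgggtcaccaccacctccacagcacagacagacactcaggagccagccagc
Tnnt1: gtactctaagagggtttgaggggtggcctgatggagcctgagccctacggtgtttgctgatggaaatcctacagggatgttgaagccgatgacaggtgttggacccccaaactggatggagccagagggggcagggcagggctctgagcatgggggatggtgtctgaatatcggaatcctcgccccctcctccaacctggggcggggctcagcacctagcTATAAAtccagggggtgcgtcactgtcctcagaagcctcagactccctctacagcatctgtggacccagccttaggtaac

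RefSeq start regions were at hand for 27 of the 34 genes, as 31 sequences. CAGCTG was in 18 of the 31 (58.1%), and in 16.3% of all 32851 start regions of the same length. CATTCC was in 11 (35.5%), against 14.7% of all, and TATAAA in 7 (22.6%), against 13.6% of all. CAGCTG was in the windows of 5 of the 9 fast genes with a sequence (Myl1, Mylpf, Atp2a1, Casq1 and Myh4, and not Myh1, Myh2, Mybpc2 or Tnnc2). It was in those of 2 of the 5 slow genes (Tnni1 and Mybpc1, and not Tnnt1, Tnnc1 or Myh7). A match describes the sequence and is not a measured binding site.

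The first comparison asked whether these genes were higher or lower in the knock-in mice. None of the 33 tested genes passed the threshold of 0.05 in either direction (edgeR's quasi-likelihood test with Benjamini-Hochberg adjustment, adjusted p 0.966 to 1.0), where 0.00965% of all genes were called higher and 0.0241% lower. At an unadjusted p under 0.05, 1 of 33 was higher (Myh3) and 1 of 33 was lower (Myh4), beside 2.54% and 1.96% of all genes tested. The lower count was 12 of 33 without knock-in replicate 1, where 5.05% of all genes were lower at that p, 3 without knock-in replicate 3 (1.92% of all genes) and 0 without knock-in replicate 2 (0.935%) or wild-type replicate 2 (2.97%). The higher count was 2 without knock-in replicate 3 (1.96% of all genes) and 0 without knock-in replicate 2 (2.29%) or wild-type replicate 3 (1.65%). DESeq2 called 0 of them as well (0.0398% of all genes higher and 0.0531% lower), with 1 higher and 2 lower at an unadjusted p under 0.05 (1.17% and 1.24% of all genes). In limma-voom 0 were called (0.0145% of all genes higher and 0.0241% lower), with 1 higher and 1 lower at an unadjusted p under 0.05 (2.34% and 1.9% of all genes). No tested member had knock-in and wild-type libraries that did not overlap, beside 4.71% of all genes higher and 4.01% lower without overlap.

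The log2 fold changes (knock-in over wild-type) of 29 of the 33 genes were negative, beside 49.8% of all genes, and their median was -0.21, beside 0.00082 for all genes. The median rested on single libraries: it was -0.41 without knock-in replicate 1 and -0.01 without wild-type replicate 2, where 17 of 33 were negative, and it was -0.12 and -0.11 without knock-in replicates 2 and 3 and -0.33 without wild-type replicate 3. In the authors' deposited table, which lists 33 of the 34 genes, adjusted p was 0.515 to 1.0, so 0 of them were called, where 0.0802% of all genes were called higher and 0.102% lower. The 3 genes with an unadjusted p under 0.05 in the authors' deposited table were Myh3 (0.00344), Myh4 (0.00384) and Pgam2 (0.0375), where 1.63% of all genes were higher and 1.64% lower at that p.

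**Figure D1:**
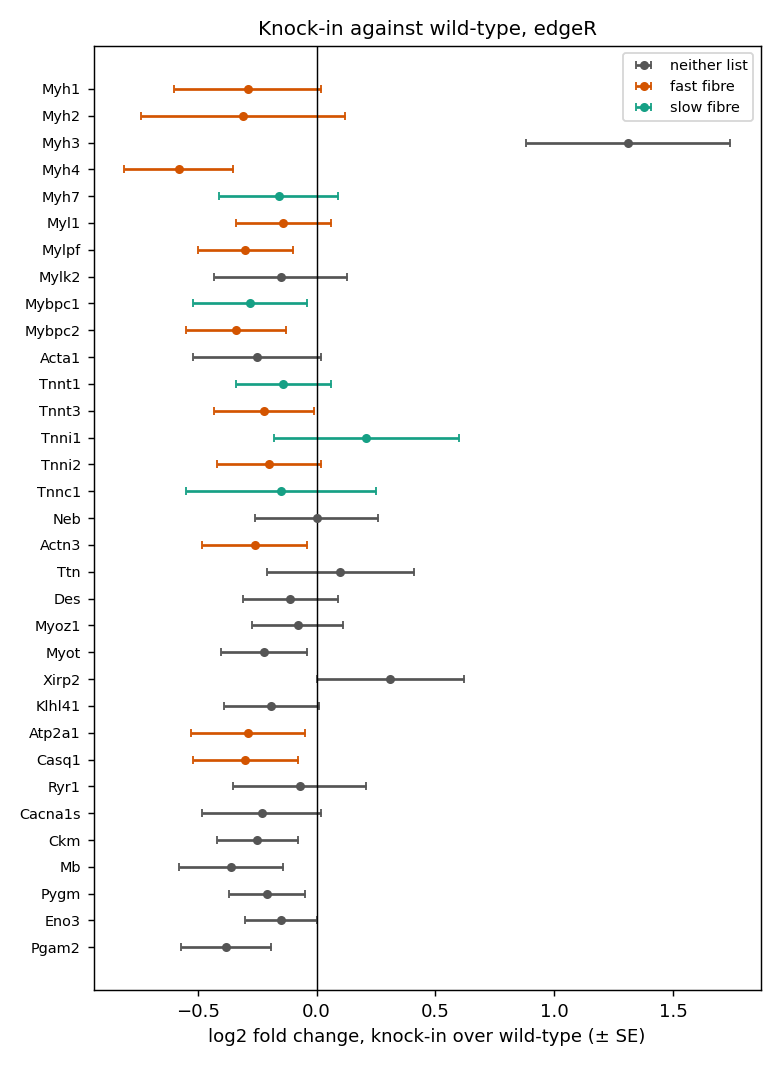
Log2 fold change of each of the 33 tested muscle genes (x axis, knock-in over wild-type, bars ± SE, edgeR), grouped down the page by role from the thick filament to energy metabolism. All but 4 points lie below zero, the lowest at -0.58 (Myh4), and Myh3 stands alone at 1.31.

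Differences between libraries of one group were as large as those between groups. The summed level of all 34 genes was 16618.6, 11437.1 and 8196.9 CPM in knock-in replicates 1 to 3 and 11021.1, 16837.9 and 11030.9 CPM in wild-type replicates 1 to 3. The highest library of each group stood at nearly the same summed level. Ttn, the titin gene, was the largest single part of every sum. Of the 2 highest sums, Ttn supplied 7793.7 CPM for knock-in replicate 1 but 6834.3 for wild-type replicate 2. Their near equality therefore rested partly on Ttn. The 34 genes, Ttn included, took 0.788% to 1.6% of a knock-in library and 1.09% to 1.72% of a wild-type library. Knock-in replicate 3 was the lowest library for 20 of the 33 tested genes, beside 22.3% of all genes tested. Wild-type replicate 2 was the highest for 21 of them, beside 15.5% of all genes. In bulk tissue such as this, fewer muscle cells and less RNA per muscle cell cannot be told apart.

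**Figure D2:**
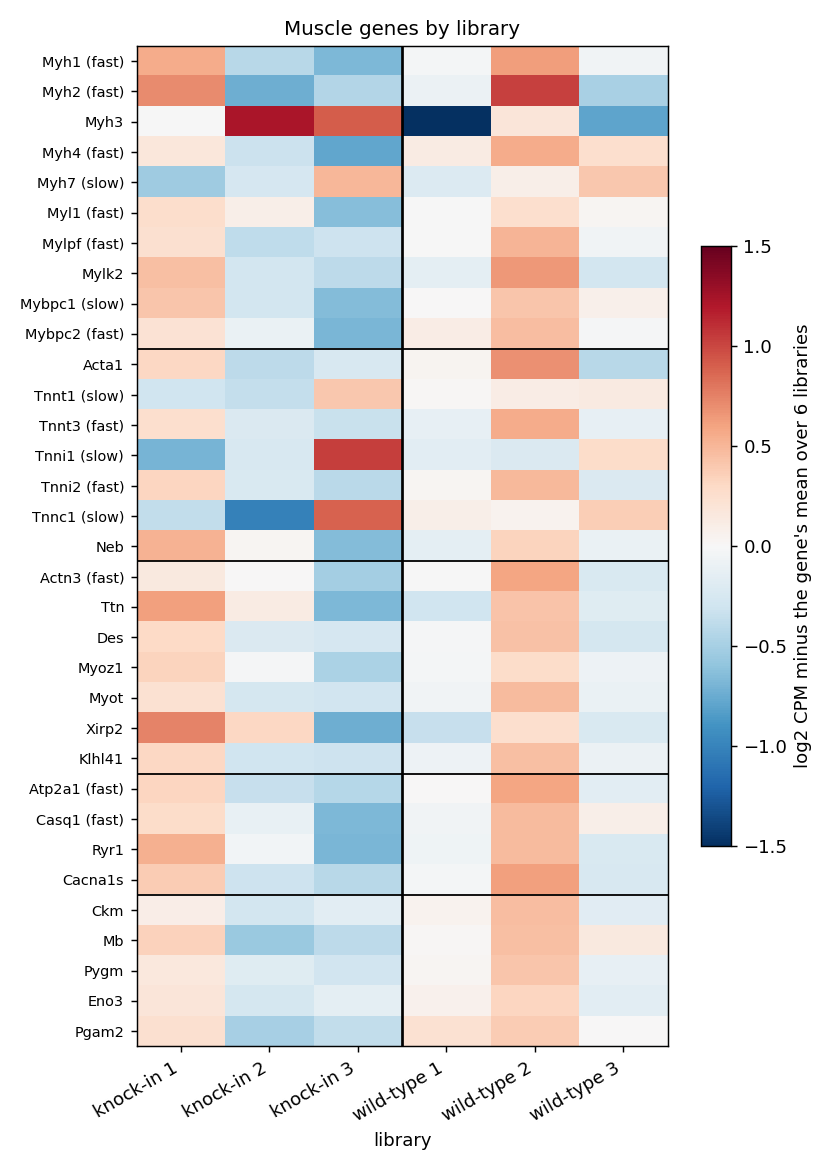
Each row is 1 of the 33 tested muscle genes and each column 1 library, with colour giving log2 CPM minus the gene's mean over the 6 libraries and capped at the ends of the scale. Most rows are red in knock-in 1 and wild-type 2 and blue in knock-in 3, while the slow genes Myh7, Tnnt1, Tnni1 and Tnnc1 are red in knock-in 3.

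The thick filament genes were led by the fast myosin heavy chains. Myh4 (type IIB myosin) had 1158, 824 and 599 CPM in knock-in libraries and 1115.5, 1509.2 and 1223.4 CPM in wild-type libraries. Knock-in replicates 2 and 3 lay below every wild-type library, and knock-in replicate 1 lay inside the wild-type range. Its log2 fold change was -0.58 (SE 0.23; edgeR unadjusted p = 0.0296, adjusted p = 0.966), with -0.85 without knock-in replicate 1 and -0.38 without knock-in replicate 3.

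Myh1 (type IIX myosin) was at 759, 386 and 324 CPM in knock-in and 506, 797 and 498 CPM in wild-type cochlea. Myh2 (type IIA myosin) was at 399, 147 and 180 CPM in knock-in and 229, 496 and 173 CPM in wild-type cochlea. For both genes the groups overlapped, with knock-in replicate 1 and wild-type replicate 2 the highest of their groups, and the log2 fold changes were -0.29 (SE 0.31) and -0.31 (SE 0.43). Myh2 turned to 0.27 without wild-type replicate 2. By counts per exon base, Myh4 made up 52.3%, 62.7% and 56.7% of the 3 fast myosins in knock-in libraries and 62.4%, 56.3% and 66.5% in wild-type libraries.

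These genes lie side by side with Myh3 on the forward strand of chromosome 11 of GRCm38, from 67078300 (start of Myh3) to 67260446 (end of Myh4), and are alike in sequence. Of the windows of 93 bases, the read length, in the longest coding transcript of each gene, 16.3% in Myh1, 13.1% in Myh2 and 4.84% in Myh4 also occur in a transcript of another gene, and the figure is 15.4% for Myh7, mostly with the heart gene Myh6. The sources used here do not state how such reads were counted, so the split among these myosins is uncertain.

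Myh3, the embryonic myosin that regenerating fibres also use, was low, with 34, 71 and 45 counts in knock-in and 9, 35 and 25 counts in wild-type libraries. In CPM these were 1.03, 2.42 and 1.95 in knock-in and 0.362, 1.18 and 0.597 in wild-type, and knock-in replicate 1 lay below wild-type replicate 2. Myh3 had a log2 fold change of 1.31 (SE 0.43; edgeR unadjusted p = 0.0133, adjusted p = 0.966), the only one above 1 in size among these genes. It was 1.02 without knock-in replicate 2 and 1.84 without wild-type replicate 2. Myh3 was described in full after its values were seen.

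Myh7, the slow (type I) myosin that the heart also uses, had 11.8, 14.3 and 24.0 CPM in knock-in and 14.8, 18.2 and 22.6 CPM in wild-type libraries. Here knock-in replicate 3 was the highest of all 6, against the pattern of the fast myosins. The log2 fold change was -0.16 (SE 0.25), and it was 0.04 without knock-in replicate 1 and -0.51 without knock-in replicate 3.

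The light chains and binding proteins were high and low in the same libraries as the fast myosins, with some exceptions. Myl1, the fast essential light chain, was at 259, 229 and 138 CPM in knock-in and 214, 257 and 220 CPM in wild-type libraries, and Mylpf, the fast regulatory light chain, at 272, 178 and 187 CPM in knock-in and 230, 329 and 223 CPM in wild-type libraries. Mybpc2, the fast myosin-binding protein C, was at 93.7, 75.2 and 50 CPM in knock-in and 87.0, 111 and 79.1 CPM in wild-type libraries. Mybpc1 encodes the slow form of that protein, which fast fibres also make, and was at 195, 121 and 93.3 CPM in knock-in and 147, 195 and 154 CPM in wild-type libraries. Mybpc1 was thus lowest in knock-in replicate 3 like the fast genes and unlike Myh7. The log2 fold changes of the 4 genes were -0.14 for Myl1, -0.3 for Mylpf, -0.34 for Mybpc2 and -0.28 for Mybpc1. Mylk2, the kinase of the light chain, was lower in level, at 23.0 to 41.3 CPM in knock-in and 24.9 to 47.4 CPM in wild-type libraries.

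On the thin filament, Acta1 (skeletal muscle actin) had the highest level per length of all 34 genes, 529 CPM per kb of exon as the mean of 6 libraries. It was at 969, 597 and 663 CPM in knock-in and 805, 1253.4 and 585 CPM in wild-type libraries, with a log2 fold change of -0.25 (SE 0.27) that turned to 0.1 without wild-type replicate 2. Neb encodes nebulin, the ruler of the thin filament, and was at 1008.6, 716 and 449 CPM in knock-in and 636, 884 and 656 CPM in wild-type libraries. The groups overlapped for each gene, and the group means of Neb were 724 ± 280 CPM in knock-in and 725 ± 138 CPM in wild-type (SD, n = 3 each).

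Fast troponins were the next most abundant thin filament genes per length, with 276 CPM per kb for Tnnt3 and 164 CPM per kb for Tnni2. Tnnt3 (troponin T) was at 507, 367 and 338 CPM in knock-in and 392, 626 and 393 CPM in wild-type libraries. Tnni2 (troponin I) was at 301, 205 and 182 CPM in knock-in and 246, 336 and 207 CPM in wild-type libraries. Knock-in replicate 3 was the lowest library for both.

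The slow troponins ran the other way among the knock-in libraries. Tnnt1 was at 6.37, 6.11 and 10.4 CPM in knock-in and 7.96, 8.45 and 8.6 CPM in wild-type libraries. Tnni1 was at 2.41, 3.31 and 7.98 CPM in knock-in and 3.5, 3.36 and 4.73 CPM in wild-type libraries. Tnnc1, the troponin C of slow fibres and heart, was at 2.2, 1.4 and 5.24 CPM in knock-in and 3.01, 2.93 and 3.65 CPM in wild-type libraries. For all 3 genes knock-in replicate 3 was the highest of the 6 libraries and the other 2 knock-in libraries were below every wild-type library. Their log2 fold changes were -0.14 (SE 0.2) for Tnnt1, 0.21 (SE 0.39) for Tnni1 and -0.15 (SE 0.4) for Tnnc1. Without knock-in replicate 3 they were -0.42, -0.45 and -0.83.

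Tnnc2, the troponin C of fast fibres, was nearly absent from the count table, with 5, 1 and 4 counts in knock-in and 4, 5 and 2 counts in wild-type libraries. It was the 1 gene of the 34 that did not pass the filter, although its fast partners Tnnt3 and Tnni2 had far higher counts in the same libraries. In the gene models, 74.0% of its exon bases (chromosome 2 from 164777161 to 164779967, reverse strand) lie inside exons of Ube2c on the opposite strand, the largest such share among these genes. Ube2c, a gene of cell division, had 1204, 1018 and 790 counts in knock-in and 1213, 1002 and 1903 counts in wild-type libraries. Whether the counting rule moved Tnnc2 reads was not tested.

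The slow share was taken within each pair of forms, as the slow gene's part of the counts of its slow and fast forms. Myh7 made up 0.507%, 1.04% and 2.13% of the counts of Myh7, Myh1, Myh2 and Myh4 in knock-in libraries and 0.791%, 0.647% and 1.18% in wild-type libraries. Tnni1 made up 0.796%, 1.59% and 4.2% of Tnni1 and Tnni2 in knock-in and 1.4%, 0.992% and 2.23% in wild-type libraries. Tnnt1 made up 1.24%, 1.64% and 2.97% of Tnnt1 and Tnnt3 in knock-in and 1.99%, 1.33% and 2.14% in wild-type libraries. In all 3 pairs the order of the knock-in libraries was the same, replicate 1 lowest and replicate 3 highest, and these were also the lowest and the highest of all 6 libraries. The exact 95% binomial intervals of the Myh7 share were 0.458% to 0.56% in knock-in replicate 1 and 1.95% to 2.31% in knock-in replicate 3, and they cover counting error only.

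Between the groups, the mean slow share scaled by exon length differed by 0.264 percentage points for Myh7, 0.282 for Tnni1 and 0.0913 for Tnnt1 (knock-in minus wild-type), against a spread among libraries of 0.451, 0.572 and 0.516 points (SD). Each difference was smaller than its spread. Without knock-in replicate 3 the differences were -0.0687, -0.148 and -0.28 points. The share of Tnnc1 in Tnnc1 and Tnnc2 was 93.6% to 97.6% in knock-in and 94.6% to 98.7% in wild-type libraries, a value set by the few counts of Tnnc2.

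**Figure D3:**
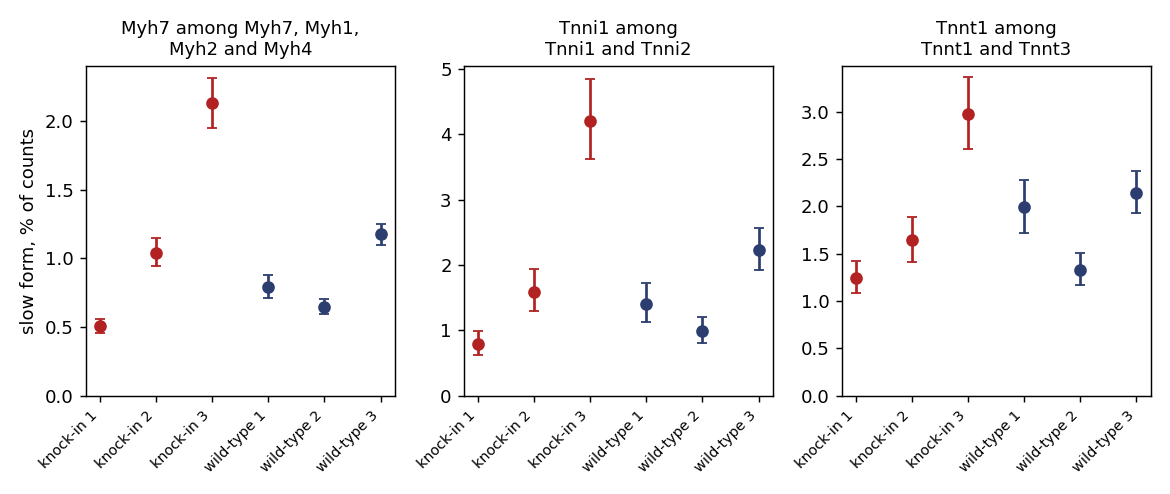
Slow form as a percentage of the counts of slow and fast forms (y axis) in each library for 3 pairs of genes, knock-in libraries left of wild-type ones, with bars for exact 95% binomial intervals. In every pair knock-in 1 is the lowest point and knock-in 3 the highest, at 0.507% and 2.13% for Myh7.

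The fast and slow lists were read separately over libraries. All 11 tested fast genes had a negative log2 fold change (median -0.29), and 4 of 5 slow genes did (median -0.15). Relative to each gene's mean over libraries, the median log2 level of the fast genes was 0.27, -0.23 and -0.51 in knock-in replicates 1 to 3 and -0.01, 0.55 and -0.05 in wild-type replicates 1 to 3. For the 5 slow genes it was -0.36, -0.27 and 0.49 in knock-in and 0.01, 0.1 and 0.28 in wild-type replicates 1 to 3. Knock-in replicate 3 was the lowest library for 9 of the 11 fast genes and the highest for 4 of the 5 slow ones, beside 22.3% and 22.9% of all genes. The fast median was -0.55 without knock-in replicate 1, -0.19 without knock-in replicate 2, -0.11 without knock-in replicate 3 and -0.04 without wild-type replicate 2. The slow median was 0.03 without knock-in replicate 1, about 0 without knock-in replicate 2, -0.45 without knock-in replicate 3 and -0.04 without wild-type replicate 3.

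Knock-in replicate 3 had a Neo count at the wild-type level and was also the lowest library for 9 of the 11 tested fast genes. Without this library, the log2 fold changes of all 11 lay nearer to zero. The log2 fold changes of the fast genes of the thick filament were then -0.07 for Myh1, -0.14 for Myh2, -0.38 for Myh4, 0.08 for Myl1, -0.22 for Mylpf and -0.13 for Mybpc2. Those of the other fast genes were -0.11 for Tnnt3, -0.06 for Tnni2, -0.09 for Actn3, -0.16 for Atp2a1 and -0.09 for Casq1. Mybpc1 was at -0.07, while the other 4 slow genes were between -0.83 (Tnnc1) and -0.42 (Tnnt1). Among genes on neither list, Neb was at 0.25, Xirp2 at 0.62, Myoz1 at 0.11, Acta1 at -0.17, Ckm at -0.22, Pygm at -0.13, Cacna1s at -0.09, Mb at -0.26 and Pgam2 at -0.3 without that library. Des was at -0.02, Klhl41 at -0.09, Myot at -0.13, Eno3 at -0.11, Mylk2 at about 0 and Myh3 at 1.25.

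Among the genes of the Z-disc, the titin filament and sarcomere assembly, Ttn held the most counts. It encodes titin, the elastic protein that spans the sarcomere from Z-disc to M-line, and was at 7793.7, 5550.7 and 3196.3 CPM in knock-in and 4127.8, 6834.3 and 4499.8 CPM in wild-type libraries. Its log2 fold change was 0.1 (SE 0.31), and it was -0.23 without knock-in replicate 1 and 0.37 without knock-in replicate 3. Xirp2, an actin-binding repeat protein of muscle that hair cells are also known to make, was at 383, 285 and 138 CPM in knock-in and 180, 273 and 196 CPM in wild-type libraries (log2 fold change 0.31, SE 0.31). Both genes had their highest and their lowest library within the knock-in group.

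Actn3, the fast fibre alpha-actinin of the Z-disc, was at 123, 111 and 77.7 CPM in knock-in and 110, 167 and 94.8 CPM in wild-type libraries (log2 fold change -0.26, SE 0.22). The other 4 genes of this role were Des (desmin), Myoz1, Myot and Klhl41, with log2 fold changes from -0.22 (Myot) to -0.08 (Myoz1). Their levels ran from 25 CPM for Klhl41 to 165 CPM for Des in knock-in libraries and from 29.3 CPM for Klhl41 to 182 CPM for Des in wild-type libraries. The groups overlapped for each.

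Calcium release and uptake were covered by 4 genes. Atp2a1 encodes SERCA1, the pump that returns calcium to the store of fast fibres, and was at 694, 438 and 412 CPM in knock-in and 556, 839 and 499 CPM in wild-type libraries. Ryr1, the calcium release channel, was at 222, 149 and 95.6 CPM in knock-in and 147, 212 and 131 CPM in wild-type libraries. Casq1, the calcium-binding protein of the store in fast fibres, was at 88.8, 67.9 and 46.0 CPM in knock-in and 70.9, 102 and 77.8 CPM in wild-type libraries. All of these were lowest in knock-in replicate 3. Cacna1s, the voltage sensor that opens Ryr1, ran from 34.5 to 60.2 CPM in knock-in and from 39.0 to 70.8 CPM in wild-type libraries. The log2 fold changes were -0.29 (SE 0.24) for Atp2a1, -0.07 (SE 0.28) for Ryr1, -0.3 (SE 0.22) for Casq1 and -0.23 (SE 0.25) for Cacna1s. Ryr1 was at 0.18 without knock-in replicate 3. Of the exon bases of Atp2a1, 21.9% lie in exons of Rabep2 on the opposite strand, and the sources used here do not give the strand setting of the counts.

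Muscle energy metabolism was covered by 5 genes, all with negative log2 fold changes (median -0.25). Ckm, which makes the muscle creatine kinase that refills ATP, was at 319, 246 and 268 CPM in knock-in and 310, 411 and 266 CPM in wild-type libraries (log2 fold change -0.25, SE 0.17). Pygm, the muscle glycogen phosphorylase, was at 203, 160 and 149 CPM in knock-in and 185, 242 and 167 CPM in wild-type libraries (log2 fold change -0.21, SE 0.16). For Ckm knock-in replicate 2 lay under the wild-type range, and for Pygm knock-in replicates 2 and 3 did, with the other knock-in libraries inside it. Mb (myoglobin, the oxygen store), Eno3 and Pgam2 (enzymes of glycolysis) had log2 fold changes of -0.36, -0.15 and -0.38. Pgam2, picked out after its values were seen, was at 54.8, 33.0 and 36.0 CPM in knock-in and 54.6, 60.6 and 46.6 CPM in wild-type libraries (edgeR unadjusted p = 0.0672, adjusted p = 0.966).

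The size of the gap between libraries differed among the genes. From the lowest to the highest of the 6 libraries, fast genes spanned 1.85 to 3.38 times and slow genes 1.7 to 3.75 times. The widest span was that of the low-count gene Myh3 (6.7 times) and the narrowest that of Eno3 (1.5 times). Between knock-in replicates 1 and 3, the ratio was 2.78 for Xirp2, 2.44 for Ttn, 2.32 for Ryr1 and 2.25 for Neb, which have long transcripts, and 1.19 for Ckm and 1.26 for Eno3, the lowest outside the slow genes and Myh3. The ratio did not follow length throughout: it was 1.93 for Casq1 (1951 exon bases) and 1.88 for Myl1 (2074 bases), and 1.74 for Cacna1s (6550 bases). For the slow genes Tnni1, Tnnc1, Myh7 and Tnnt1 that ratio was 0.302, 0.42, 0.492 and 0.613, and for Mybpc1 it was 2.09.

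Length was looked at after these values were seen, and only as a description. Over the 28 tested genes that are not slow fibre genes, the level relative to each gene's mean correlated with log2 exon length at a Pearson's r of 0.58 in knock-in replicate 1, 0.35 in replicate 2 and -0.26 in replicate 3 (Spearman's rho 0.4, 0.36 and -0.47). The slow genes were left out here after their values were seen, and over all 33 tested genes Pearson's r was 0.34, 0.39 and -0.23 in knock-in replicates 1 to 3 and -0.34, 0.04 and -0.19 in wild-type replicates 1 to 3. Over the 28 genes without the slow ones, Pearson's r in wild-type replicates 1 to 3 was -0.32, -0.03 and -0.21 (Spearman's rho -0.5, 0.0 and -0.38). These genes share the library and its depth, and over all 20669 tested genes with a length Pearson's r was 0.01 in knock-in replicate 1 and -0.04 in knock-in replicate 3. The 7 longest of the 28, from 6353 to 116825 exon bases, had a median of 0.55, -0.04 and -0.67 in knock-in replicates 1 to 3. The 7 shortest of the 28, from 840 to 1739 bases, had 0.25, -0.38 and -0.34. The part of RNA quality in this was not tested.

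**Figure D4:**
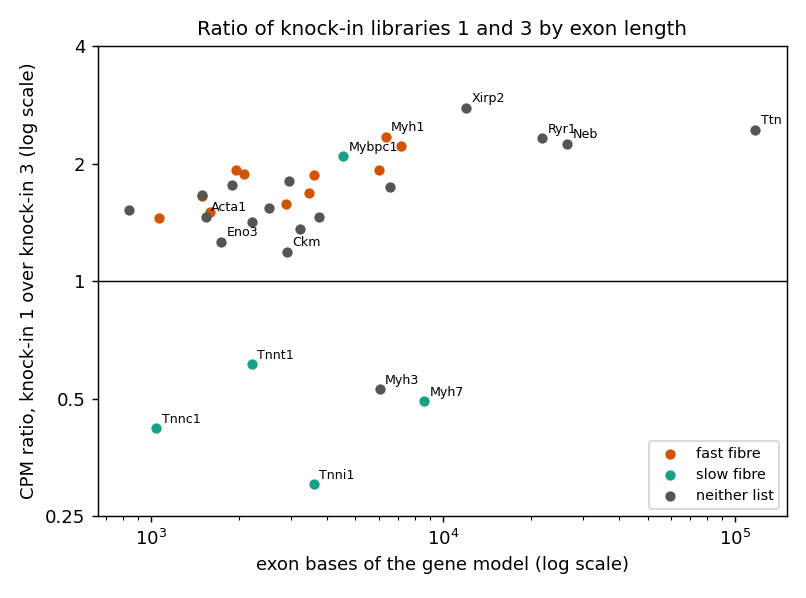
Ratio of CPM in knock-in replicate 1 over knock-in replicate 3 (y axis, log scale) against exon bases (x axis, log scale) for the 33 tested muscle genes. The long genes Xirp2 and Ttn stand at 2.78 and 2.44, the shorter Casq1 and Ckm at 1.93 and 1.19, and the slow genes Tnni1, Tnnc1, Myh7 and Tnnt1 below 1, as does Myh3 at 0.528.

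Other muscle genes were read from lists that exclude the 34. Of 28 other sarcomere genes, 0 were called by edgeR, where 0.00965% of all genes were called higher and 0.0241% lower. Of the 28, 26 had a negative log2 fold change, beside 49.8% of all genes, and the median was -0.2. The 3 highest in level were Tpm1 at 411 to 471 CPM in knock-in and 426 to 577 CPM in wild-type libraries, Tpm2 (log2 fold change -0.41) and Fhl1 (log2 fold change -0.08). Of 21 tested genes of excitation-contraction coupling, 0 were called by edgeR, against the same shares of all genes. In this list 16 were negative, beside 49.8% of all genes, and the median was -0.28. Pvalb, the calcium buffer parvalbumin of fast fibres and of some neurons, was the most abundant at 222 to 321 CPM in knock-in and 276 to 346 CPM in wild-type libraries. At an unadjusted p under 0.05 by edgeR, 2 were lower in the sarcomere list and 4 in the coupling list, beside 1.96% of all genes. DESeq2 called 0 in each list, where it called 0.0398% of all genes higher and 0.0531% lower. The sums of both lists were highest in wild-type replicate 2, as for the 34 genes. The sarcomere list summed to 2297.5 CPM there and to 1366.9 to 1920.5 CPM in the other libraries. The coupling list summed to 817 CPM there and to 478 to 726 CPM in the others. The negative genes of these lists were not counted without that library.

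The highest library differed among the other genes of slow fibres, and was knock-in replicate 3 for Myl2 and Myl3. Knock-in replicate 2 was the lowest for Myl2, Myl3, Myh7b, Casq2, Atp2a2 and Myoz2, and knock-in replicate 3 for Myl6b and Tpm3. Of the 8 tested genes of this list, 0 were called by edgeR or DESeq2, 0 had an unadjusted p under 0.05 in edgeR, and 7 were negative (median -0.12). Over all genes, edgeR called 0.00965% higher and 0.0241% lower, and DESeq2 0.0398% and 0.0531%. At an unadjusted p under 0.05 in edgeR, 2.54% of all genes were higher and 1.96% lower, and 49.8% of all genes were negative. Atp2a2, the pump of slow fibres and many other cells, was at 197 to 232 CPM in knock-in and 206 to 215 CPM in wild-type libraries. Myl2, the slow regulatory light chain, was at 11.1, 6.48 and 20.1 CPM in knock-in and 11.5, 16.1 and 10.2 CPM in wild-type libraries, highest in knock-in replicate 3 like Myh7. Tpm3 was at 139 to 146 CPM in knock-in and 142 to 178 CPM in wild-type libraries. Of 4 developmental and head muscle myosins, 0 were called by edgeR or DESeq2 and 0 had an unadjusted p under 0.05 in edgeR. Of these, 2 were negative, and the shares of all genes were the same as above. Myh8, the perinatal myosin, was at 1.99, 3.86 and 2.69 CPM in knock-in and 1.61, 3.33 and 2.34 CPM in wild-type libraries.

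Of 8 tested myogenic regulators and satellite cell genes, 0 were called by edgeR, beside 0.00965% of all genes higher and 0.0241% lower. DESeq2 called 0 as well (0.0398% and 0.0531% of all genes). At an unadjusted p under 0.05 in edgeR there were 0 of these genes, beside 2.54% and 1.96% of all genes. Their summed level was 241 to 259 CPM in knock-in and 250 to 266 CPM in wild-type libraries, a narrower range than that of the contractile genes. Most of it was Mef2c, a transcription factor that muscle shares with neurons and other cells, at 132 to 153 CPM in knock-in and 142 to 148 CPM in wild-type libraries. In the 18 other metabolism genes 0 were called by either tool and 0 had an unadjusted p under 0.05 in edgeR, beside the same shares. Of the 18, 12 were negative, beside 49.8% of all genes. Aldoa was at 606 to 774 CPM in knock-in and 693 to 798 CPM in wild-type libraries.

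Markers of other tissues near the cochlea moved with the libraries in their own ways. All 8 adipocyte genes had a positive log2 fold change (median 1.57), with a summed level of 636, 300 and 1203.8 CPM in knock-in and 192, 335 and 314 CPM in wild-type libraries, and 0 were called by edgeR or DESeq2 although all 8 had an unadjusted p under 0.05 in edgeR, beside 2.54% of all genes higher at that p. Salivary gland genes summed to 30.7, 80.2 and 214 CPM in knock-in and 12.7, 17.0 and 12.9 CPM in wild-type libraries, and Car6 was the 1 of 4 called by edgeR (adjusted p = 0.0205), where DESeq2 called 3, beside 0.00965% of all genes called higher by edgeR and 0.0398% by DESeq2. Cartilage genes summed to 246, 572 and 484 CPM in knock-in and 210, 303 and 192 CPM in wild-type libraries, with 0 of 7 called by edgeR, 6 at an unadjusted p under 0.05 and 2 called by DESeq2, against the same shares of all genes. Knock-in replicate 3, lowest in the fast muscle genes, was thus highest in the adipocyte and salivary sums. Smooth muscle genes summed to 291, 328 and 452 CPM in knock-in and 367, 447 and 322 CPM in wild-type libraries. Heart genes summed to 18.3 to 19.8 CPM in knock-in and 20.1 to 23.8 CPM in wild-type libraries. Most of that sum was Ryr2, at 12.2 to 14.1 CPM in knock-in and 12.1 to 16.3 CPM in wild-type libraries. Of 5 tested heart genes, 3 were positive and 2 negative (median log2 fold change 0.17), beside 49.8% negative of all genes. The groups overlapped for each of the 5. Tendon genes summed to 238, 299 and 352 CPM in knock-in and 288, 287 and 243 CPM in wild-type libraries. Bone genes summed to 3116.1, 3270.1 and 3882.8 CPM in knock-in and 4125.6, 3332.6 and 2507.8 CPM in wild-type libraries. Of the tendon genes 6 of 7 were positive (median 0.13), and of the bone genes 5 of 5 (median 0.14), where 49.8% of all genes were negative. No gene of these lists was at 0 in all 6 libraries. The part of these tissues in the muscle values was not tested.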

How the data were processed

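Total RNA of cochleae, depleted of ribosomal RNA, was sequenced as paired reads of 93 bases, per the labels' protocols. The authors mapped the reads to GRCm38 with STAR 2.5.2, per the submitters' processing notes, and deposited raw counts per gene. The sources used here do not give the counting program or strand setting. The authors' deposited DESeq2 table holds p-values, a test score, log2 fold changes and a mean signal, which is the mean of size-factor-scaled counts. Its fold changes run knock-in over wild-type, judged from the sign beside the counts. A deposited table of transformed values was not used.

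From the counts, edgeR 4.0.16 (R 4.3.3) was run over both groups: low-count filter by group, TMM scaling, quasi-likelihood test, Benjamini-Hochberg adjustment over 20733 genes, threshold 0.05. The SE is the size of the log2 fold change divided by the root of F. CPM are scaled by TMM. Of 48733 rows, 24 were not mouse genes (0.00151% to 0.0045% of counts) and were left out. Symbols (48349 matched) and exon lengths came from GENCODE gene models on GRCm38. On simulated data of 20463 genes, the test called 43 of 50 genes raised 2-fold, 31 of 50 lowered to 0.5-fold and 19 of 20263 unchanged ones. Genes were simulated independently of each other, and the changed ones were picked above a minimum expected count. Changes smaller than these were not simulated, so the rates do not give the power for most of the muscle genes. In 15 pairs of libraries none agreed within counting noise (chi-square per degree of freedom 21.0 to 49.0). Replicate numbers follow accession order and pair no libraries. The sources used here do not give each mouse's litter, age or sex. The p-values set the difference between the groups against the spread of these 6 libraries within their groups.

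Alternatives were DESeq2 1.42.0, limma-voom (limma 3.58.1), other scalings and filters, and leaving out each library. All fast and slow genes are given, with the 2 highest in mean CPM of each other role, and up to 3 genes of each further list plus any called. The members and lists were chosen with earlier results of these data known.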

Additional observations from a re-analysis of the deposited data

Results flagged for a closer look

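Reads assigned to the Neo cassette, which is not a mouse gene and enters none of the comparisons, numbered 71 in knock-in replicate 1 and 199 in knock-in replicate 2, above the 5, 8 and 10 of the wild-type libraries. In knock-in replicate 3 there were 5, inside the wild-type range.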

How the results depend on the processing

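No paired analysis was possible because the labels give the groups no shared replicate numbers. No muscle gene was called in any of the 14 alternatives per gene (lowest adjusted p 0.215), and 15 of 33 genes kept their sign in all of them. Without wild-type replicate 2, 12 genes changed sign. Over all genes, 2 were called higher, with 12 by DESeq2, 46 with no low-count filter and 0 to 13 when each library was left out in turn, and 5 were called lower, with 16 by DESeq2, 30 with no filter and 2 to 8 without a library. Muscle genes with an unadjusted p under 0.05 numbered 1 higher (0 to 2 without a library) and 1 lower (2 by DESeq2, 4 with no filter, 0 to 12 without a library, with 12 without knock-in replicate 1, where 5.05% of all genes were lower at that p). The sign of Tnni1 turned in limma-voom (-0.02), and that of Neb, near 0, with a minimum of 1 CPM in 3 libraries (0.0) and with upper-quartile scaling (0.01). The causes were not tested.

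Leaving out each library gave log2 fold changes of both signs for 18 genes: Acta1 (-0.48 to 0.1), Actn3 (-0.42 to 0.02), Myh2 (-0.87 to 0.27), Myh7 (-0.51 to 0.04), Myl1 (-0.33 to 0.08), Mylk2 (-0.46 to 0.19), Tnnt3 (-0.41 to 0.04), Tnni1 (-0.45 to 0.53), Tnni2 (-0.44 to 0.02), Tnnc1 (-0.83 to 0.19), Ttn (-0.23 to 0.37), Neb (-0.31 to 0.25), Ryr1 (-0.42 to 0.18), Cacna1s (-0.52 to 0.06), Des (-0.31 to 0.1), Myoz1 (-0.29 to 0.11), Xirp2 (-0.03 to 0.62) and Klhl41 (-0.43 to 0.01).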

Other observations

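Mybph, a myosin-binding protein gene outside the 34 and chosen after its values were seen, was at 0.936, 0.717 and 0.91 CPM in knock-in and 1.93, 2.62 and 1.89 CPM in wild-type libraries. The groups did not overlap, and the log2 fold change was -1.32 (edgeR unadjusted p = 0.000341, adjusted p = 0.307), which did not pass the threshold. Cox8b, a respiratory chain subunit of muscle and brown fat that was also picked out afterwards, was at 50.8, 23.4 and 79.8 CPM in knock-in and 26.4, 38.2 and 30.7 CPM in wild-type libraries. Myh13, the myosin of eye and throat muscles, was at 1.42, 0.444 and 0.737 CPM in knock-in and 1.25, 2.56 and 0.908 CPM in wild-type libraries.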
